A study of Mus musculus with 8 samples.

Results

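Binding of the transcription factor C/EBPα in mouse liver was examined around 3 genes of fasting glucose supply, Pck1, G6pc and Tat. All chromatin immunoprecipitation (ChIP-seq) peaks were taken that lie in 3 windows of build mm9, whose members were chosen by position and not by signal: chr2:172900000-173060000 for Pck1, chr11:101170000-101300000 for G6pc and chr8:112450000-112600000 for Tat. The windows held 274 of the 446523 peaks of the 8 libraries, which joined into 59 of the 113353 sites of the whole series: 19 at Pck1, 22 at G6pc and 18 at Tat. There were 4 groups of 2 libraries, all from liver of 8 to 10 week old mice of strain C57B/6 on chow, fasted for 4 hours. Trib1_WT and Trib1_LSKO were both Trib1 flox/flox mice, injected with 1.5e11 gc (genome copies) of the adeno-associated virus vectors AAV_Null, which is empty, or AAV_Cre, which codes for Cre recombinase. AAV_Null and AAV_Cebpa were wild-type mice injected with 1e12 gc of the empty vector or of one that encodes C/EBPα. The control groups thus also received virus, and they differ from each other in the floxed Trib1 allele and in dose. The labels name neither the promoter that drives Cre or C/EBPα nor whether replicates were separate animals, and the spread of replicates may therefore be technical.

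C/EBPα, a basic leucine zipper factor, binds DNA as a dimer and is needed for normal expression of gluconeogenic enzymes in the liver. Gluconeogenesis makes glucose from lactate, glycerol and amino acids during fasting, when glucagon, acting through cyclic AMP, and glucocorticoids induce its enzymes. Pck1 encodes the cytosolic phosphoenolpyruvate carboxykinase, which commits oxaloacetate to the pathway. G6pc encodes the catalytic subunit of glucose-6-phosphatase, which releases free glucose at its end. Tat encodes tyrosine aminotransferase, the rate-limiting enzyme of tyrosine breakdown, whose products feed the pathway, and it is a classical glucocorticoid target with enhancers far upstream of the gene. Trib1 encodes the pseudokinase Tribbles-1, which promotes the breakdown of C/EBPα protein.

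Peaks had their middle within 1 kb of the rounded start of Pck1 and of G6pc in all 8 libraries. The 250 bases before the RefSeq start of those genes are shown (build GRCm38.p6, plus strand, chr2:173152823-173153072 for Pck1 and chr11:101367466-101367715 for G6pc). At Pck1 the middle of the site lay 299 bp before the rounded start, so much of that site may lie outside these letters. Capitals mark matches to a C/EBP-like pattern, TTNNGNAA, or to the variant cyclic AMP response element TTACGTCA.
Pck1: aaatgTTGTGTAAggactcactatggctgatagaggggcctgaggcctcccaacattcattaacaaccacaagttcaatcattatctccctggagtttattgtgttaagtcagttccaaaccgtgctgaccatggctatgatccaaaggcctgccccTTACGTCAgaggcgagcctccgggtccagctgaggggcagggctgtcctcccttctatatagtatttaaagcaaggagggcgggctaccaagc
G6pc: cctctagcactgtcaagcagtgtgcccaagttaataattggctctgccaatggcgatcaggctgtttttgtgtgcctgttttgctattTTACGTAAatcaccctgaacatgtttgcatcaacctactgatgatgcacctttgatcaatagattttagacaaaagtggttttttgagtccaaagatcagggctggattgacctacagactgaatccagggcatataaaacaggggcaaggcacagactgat

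Upstream of Pck1, TTGTGTAA began 245 bases before the start and TTACGTCA began 93 bases before it. In the G6pc sequence, TTACGTAA, which fits the C/EBP-like pattern on both strands, began 162 bases before the start. The table's Tat promoter held TTCCTGAA, a match on the minus strand, 248 bases before its start. A stricter pattern, TTGCNNAA, and the palindromic TGACGTCA had no match in these 3 promoters. On either strand, TTNNGNAA (TTNCNNAA on the other) was found in 36.8% of the 32851 mouse promoter windows of the same length in the table, TTACGTCA in 0.447%, TTGCNNAA in 9.56% and TGACGTCA in 1.55%. The pattern TTNNGNAA was added after the sequences had been read. A match describes letters and not occupancy, and the peaks could not be placed on these letters because they are in another build.

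Lists held 46348 to 80394 peaks, each 200 bp wide, with relative depths of 1 (AAV_Null replicate 1) to 2.27 (AAV_Cebpa replicate 2). Both AAV_Cebpa libraries were deeper than both AAV_Null libraries, and both AAV_Cebpa lists were longer. Each peak has 1 signal value, the authors' own, given here as a percentile inside its own list, where 100 is the strongest peak. Lists differ in length, so percentiles of different libraries are set side by side and are not read as a change. The order of groups at a site is described likewise, and the share of all sites with the same order was not counted. Distances are from the rounded starts used to set the windows, to about 100 bp at Pck1 and G6pc and about 1 kb at Tat, and all 3 genes lie on the plus strand in RefSeq. RefSeq, in its other build, gives Tat a longer extent (13727 bp) than the rounded one used here (11000 bp), so the labels inside and past the gene hold at Tat only for the rounded extent. Without transcript or protein data, the tissue label, the Trib1 deletion and the C/EBPα level could not be checked.

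The start of Pck1 was among the most strongly bound places in every library. The site at chr2:172978192-172978415, with its middle 299 bp before the rounded start, had percentiles of 99.1 and 99.4 in Trib1_WT, 98.8 and 99.7 in Trib1_LSKO, 99.4 and 99.6 with AAV_Null, and 97.8 and 98.9 with AAV_Cebpa. Its peaks held 164 to 284 sequence tags. All 8 libraries thus placed it in the upper 3 percent of their lists, and the ranges of Trib1_WT and AAV_Null lay inside that of Trib1_LSKO.

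A second region of like strength lay far upstream of Pck1, and the called position there differed between libraries. At chr2:172949619-172949874, 28.9 kb upstream, peaks were listed in both Trib1_WT (99.3 and 99.4), both Trib1_LSKO (98.0 and 99.5) and AAV_Cebpa replicate 2 (97.3). At chr2:172949919-172950128, 28.6 kb upstream, they were listed in both AAV_Null (99.6 and 99.5) and AAV_Cebpa replicate 1 (97.0). No library had a peak at both positions. The nearest peak of each library was 248 to 304 bp from the middle of the site that it lacked. Each library therefore had exactly 1 very strong peak in this stretch, and with a joining window of 400 bp, in place of 200 bp, the pair became 1 site of all 8 libraries. The pair falls outside the rule for sites described in full and was chosen after its values were seen.

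Of the 19 sites around Pck1, 7 were called in all 8 libraries. Over the whole series 21.5% of sites were. Besides the promoter these were 3 upstream sites near each other, 1 site 16.3 kb upstream and a pair far downstream. Percentiles were 73.9 to 88.0 at the site 45.7 kb upstream, 85.7 to 94.6 at 44.1 kb and 63.5 to 89.2 at 42.3 kb. The lowest of these last values was AAV_Null replicate 2, apart from the other 7, which were at or above 82.0. The site 16.3 kb upstream ran from 59.3 in AAV_Null replicate 1 to 80.7 in Trib1_LSKO replicate 2. Downstream, the site at 65.0 kb ran from 70.2 to 87.7. At 65.9 kb the percentiles were 49.6 and 40.7 in Trib1_WT, 20.8 and 18.2 in Trib1_LSKO, 63.3 and 60.4 with AAV_Null, and 47.2 and 57.3 with AAV_Cebpa. Both Trib1_LSKO libraries were the lowest there, and the 4 groups did not overlap apart from Trib1_WT and AAV_Cebpa. The share of all sites with such an order was not counted, and it was not read as an effect of the treatment. No peak had its middle inside the Pck1 gene.

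**Figure D1:**
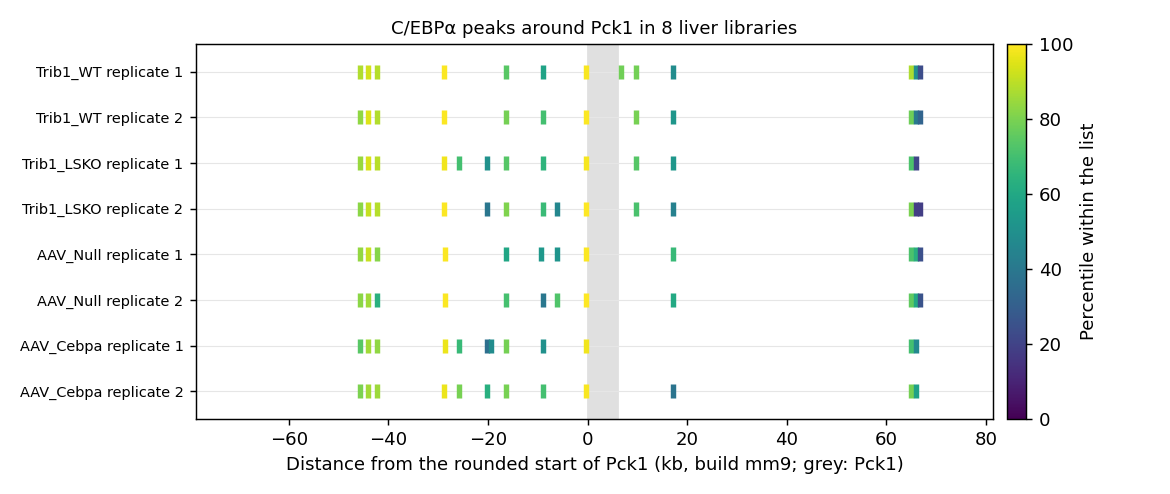
Sites with a C/EBPα peak around Pck1 by library (rows), by distance from the rounded gene start in kb (horizontal axis), coloured by percentile within each list; grey marks the gene. The promoter site is in the upper 3 percent of all 8 lists, and the strong upstream peak lies at 28.9 or 28.6 kb, depending on the library, a difference hardly visible at this scale.

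At G6pc the promoter was bound in every library, and a stronger site lay just past the end of the gene. The promoter site, chr11:101228784-101228997, had its middle 10 bp before the rounded start. Its percentiles were 84.3 and 84.8 in Trib1_WT, 76.2 and 84.8 in Trib1_LSKO, 89.4 and 85.3 with AAV_Null, and 72.4 and 75.8 with AAV_Cebpa. Both AAV_Cebpa values were below the other 6, though 75.8 was close to the 76.2 of Trib1_LSKO replicate 1. The ranges of Trib1_WT and Trib1_LSKO overlapped. The share of all sites with this order was not counted. A further site inside the gene, chr11:101229527-101229761, 0.7 kb past the start, was listed only in Trib1_LSKO replicate 1 (67.8), AAV_Null replicate 2 (71.1) and AAV_Cebpa replicate 2 (54.5), with no group holding it in both libraries.

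The strongest G6pc site was at chr11:101240235-101240884, 1.3 kb past the rounded gene end. It had percentiles of 97.9 and 98.9 in Trib1_WT, 97.3 and 96.6 in Trib1_LSKO, 95.3 and 94.6 with AAV_Null, and 97.3 and 99.3 with AAV_Cebpa. Trib1_WT replicate 2 had 2 peaks inside it, of 258 and 263 tags, and each of the other 7 libraries had 1. Every library thus placed a peak of it above 94 percent of its list, with AAV_Null lowest. The peaks did not all share 1 position. Those of Trib1_WT replicate 2 were at chr11:101240235-101240434 and chr11:101240685-101240884, and that of Trib1_LSKO replicate 2 at chr11:101240644-101240843. With a joining window of 100 bp, in place of 200 bp, 6 G6pc sites were called in all 8 libraries, and not 7.

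Of the 22 G6pc sites, 7 (31.8%) were called in all 8 libraries, beside 21.5% over all sites of the series. Of these 7, 5 lay upstream of the promoter. The site at 51.4 kb ran from 75.2 to 86.3, and that at 5.0 kb from 77.7 to 87.9. At 15.0 kb the percentiles were 86.4 and 81.6 in Trib1_WT, 68.6 and 84.4 in Trib1_LSKO, 82.0 and 84.4 with AAV_Null, and 57.0 and 45.8 with AAV_Cebpa. At 6.0 kb they were 95.2 and 95.2 in Trib1_WT, 93.7 and 95.8 in Trib1_LSKO, 78.5 and 62.7 with AAV_Null, and 73.9 and 82.4 with AAV_Cebpa. At 3.0 kb they were 89.1 and 94.1 in Trib1_WT, 87.4 and 90.9 in Trib1_LSKO, 82.0 and 85.1 with AAV_Null, and 69.1 and 71.2 with AAV_Cebpa. The 4 libraries from floxed mice were thus above the other 4 at 6.0 and at 3.0 kb, and AAV_Cebpa was lowest at 15.0 and 3.0 kb. How often sites elsewhere in the series show these orders was not counted, so they were not read as particular to G6pc.

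**Figure D2:**
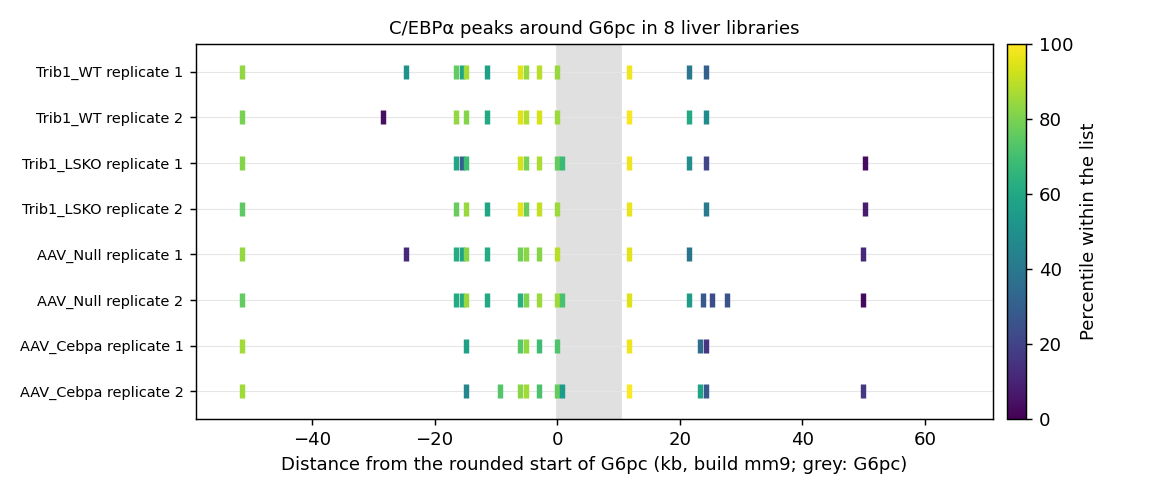
Sites with a C/EBPα peak around G6pc by library (rows), by distance from the rounded gene start in kb (horizontal axis), coloured by percentile within each list; grey marks the gene. All 8 libraries hold the promoter site and the site 1.3 kb past the gene end, and both AAV_Cebpa libraries lack the upstream sites at 16.4, 15.6 and 11.5 kb.

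Tat had no peak within 1 kb of its rounded start in any library, and its strongest site lay upstream. At chr8:112503379-112503592, 10.5 kb upstream, percentiles were 99.4 and 99.6 in Trib1_WT, 99.1 and 99.2 in Trib1_LSKO, 97.9 and 98.7 with AAV_Null, and 99.1 and 99.6 with AAV_Cebpa. This site was in the upper 3 percent of all 8 lists, with AAV_Null lowest. The site at chr8:112511764-112511975, 2.1 kb upstream, had percentiles of 99.5 and 99.6 in Trib1_WT and 95.0 and 98.6 in Trib1_LSKO. In the other experiment it was listed in AAV_Null replicate 1 (78.5) and AAV_Cebpa replicate 2 (68.9), and not in AAV_Null replicate 2 or AAV_Cebpa replicate 1. The nearest peak of AAV_Null replicate 2 was 1363 bp away, at chr8:112510408-112510607, 3.5 kb upstream (71.6), where no other library had a peak. This site falls outside the rule for sites described in full and was chosen after its values were seen.

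Of the 18 Tat sites, 4 (22.2%) were called in all 8 libraries, close to the 21.5% over all sites of the series. Besides that at 10.5 kb, the site 17.0 kb upstream had percentiles of 92.3 and 92.8 in Trib1_WT, 80.9 and 86.1 in Trib1_LSKO, 84.3 and 89.9 with AAV_Null, and 47.2 and 69.7 with AAV_Cebpa. The site 7.6 kb upstream had 91.0 and 94.0 in Trib1_WT, 85.7 and 89.8 in Trib1_LSKO, 78.9 and 84.6 with AAV_Null, and 69.1 and 82.8 with AAV_Cebpa. At both, Trib1_WT lay above the other 3 groups, and at 17.0 kb AAV_Cebpa lay below them, orders whose share over all sites was not counted. The site 21.0 kb downstream of the start was weaker, at 32.3 to 57.0. Inside the gene, chr8:112517039-112517244 was listed in both AAV_Cebpa libraries (31.9 and 32.9) and no other. A second site in the gene, at chr8:112524016-112524248 near its end, was listed in replicate 1 of Trib1_WT (85.5), Trib1_LSKO (77.9) and AAV_Null (73.6), and in no replicate 2 and no AAV_Cebpa library.

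**Figure D3:**
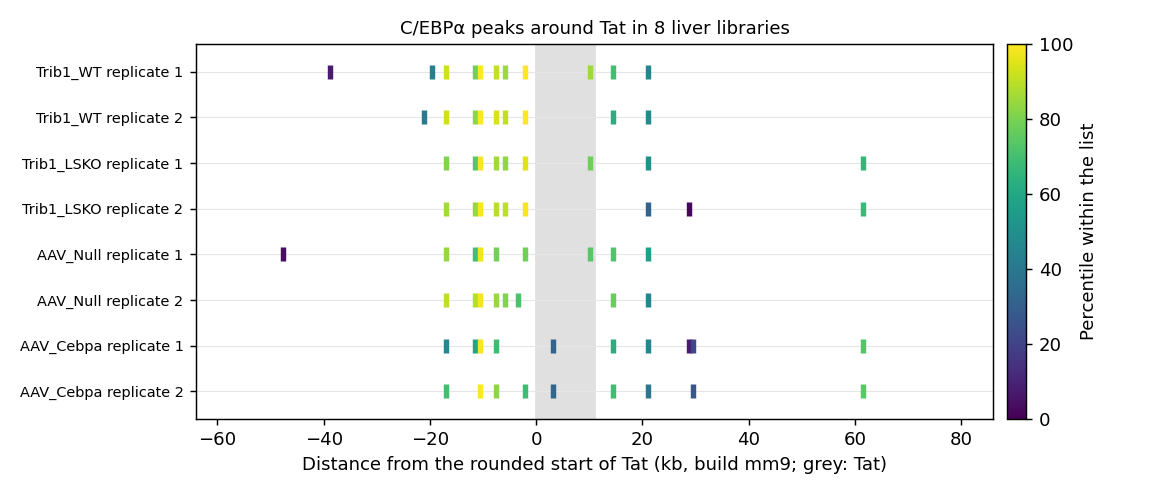
Sites with a C/EBPα peak around Tat by library (rows), by distance from the rounded gene start in kb (horizontal axis), coloured by percentile within each list; grey marks the gene. The site 10.5 kb upstream is in the upper 3 percent of all 8 lists, while that at 2.1 kb is missing from AAV_Null replicate 2 and AAV_Cebpa replicate 1.

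Over the 3 windows, 18 of 59 sites (30.5%) were called in all 8 libraries, beside 21.5% over all sites of the series. Their median percentiles over the libraries ran from 46.8 to 99.2, with a middle value of 84.8, beside 73.3 for the sites of all 8 libraries in the whole series. A further 13 sites (22.0%) were called in 1 library, beside 27.1% in the series. The windows are rich in sites: 87.5% of the tiles of 160 kb that hold a site had fewer than the 19 of Pck1, 96.0% of those of 130 kb had fewer than the 22 of G6pc, and 87.4% of those of 150 kb had fewer than the 18 of Tat. A site was not assigned to a gene. In the RefSeq table the nearest protein-coding neighbours are Ctcfl and Zbp1 for Pck1, Aoc3 and Aarsd1 for G6pc, and Marveld3 and Chst4 for Tat.

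The first comparison asked whether targeting Trib1 altered C/EBPα occupancy at these genes. Of the 59 sites around them, 3 were gained and 1 was lost. Gained means a peak in each treated library and in no control library, and lost means the opposite. No single site was tested, since with 2 libraries a group the exact two-sided permutation p is at least 0.333. In Trib1_LSKO, 3 of 59 sites were gained (5.08%), beside 3.15% of all sites, and 1 was lost (1.69%), beside 3.23%. With counts this small no share was read as differing from the background.

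The sites gained in Trib1_LSKO were 1 at each gene. At Pck1 it was chr2:172958379-172958612, 20.1 kb upstream, with percentiles of 50.2 and 39.1 in Trib1_LSKO. At Tat it was chr8:112575426-112575671, 61.5 kb downstream of the start, with 66.1 and 67.2. Both of these sites were also called in both AAV_Cebpa libraries, at 36.0 and 63.3 for Pck1 and at 72.9 and 74.2 for Tat, and in neither AAV_Null library, so they were gained in both comparisons, as were 1.62% of all sites. At G6pc it was the weak chr11:101278921-101279164, with 2.84 and 7.66. A neighbouring site, called in both AAV_Null libraries and AAV_Cebpa replicate 2, was 244 to 288 bp from these peaks. The lost site was chr8:112528327-112528546, 3.4 kb past the rounded end of Tat, with 70.0 and 62.6 in Trib1_WT. It was called in all 4 libraries of the other experiment, at 63.1 to 77.1.

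As raw counts over the full lists, the numbers of peaks around these genes touched or overlapped between Trib1_WT and Trib1_LSKO. Pck1 had 13 and 12 peaks in Trib1_WT and 13 and 14 in Trib1_LSKO, a difference of 1 (means of 12.5 ± 0.707 and 13.5 ± 0.707, SD, n = 2; exact two-sided permutation p = 0.667). G6pc had 13 and 13 against 13 and 11 (difference of -1, exact permutation p = 1), and without Trib1_LSKO replicate 2 that difference was 0. Tat had 11 and 9 against 9 and 9 (difference of -1, exact permutation p = 1), and without Trib1_WT replicate 1 it was 0. Per 10000 peaks of the list, Pck1 had 2.44 and 2.19 in Trib1_WT and 2.60 and 2.64 in Trib1_LSKO, which do not overlap (means of 2.32 ± 0.172 and 2.62 ± 0.0296, SD, n = 2; exact permutation p = 0.333, the lowest this design can give). Replicate 1 of both groups had 13 peaks there, and these shares differ only because the Trib1_LSKO list was shorter (50075 against 53327 peaks). With the strongest 50% of each list, the G6pc difference was -2, also at that lowest exact permutation p of 0.333.

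The second comparison asked whether extra C/EBPα altered its occupancy at these genes. Sites were both gained and lost at these genes. In AAV_Cebpa, 7 of 59 sites were gained (11.9%), beside 19.5% of all sites, and 6 were lost (10.2%), beside 5.33%. By gene, 2 sites were gained and 2 lost at Pck1, 2 gained and 4 lost at G6pc, and 3 gained and 0 lost at Tat. The lost sites were 10.5%, 18.2% and 0% of the sites at Pck1, G6pc and Tat, and with counts this small these shares too were not read as differing from the background or from each other.

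The 4 sites lost at G6pc comprised 3 upstream sites and 1 downstream site. That at chr11:101212352-101212575, 16.4 kb upstream, had percentiles of 61.4 and 61.2 in AAV_Null, 75.9 and 83.8 in Trib1_WT, and 59.2 and 76.8 in Trib1_LSKO. That at chr11:101213167-101213460, 15.6 kb upstream, had 58.2 and 61.2 in AAV_Null. That at chr11:101217301-101217535, 11.5 kb upstream, had 61.4 and 60.4 in AAV_Null. All 3 were thus above the middle of both AAV_Null lists and absent from both AAV_Cebpa lists. The downstream site, chr11:101250283-101250508, was 11.1 kb past the gene end and had 38.4 and 55.0. Of the 4, only the site at 16.4 kb was called in all 4 libraries from floxed mice. The count was 4 with lists cut to equal length or with a common signal minimum of 6.1, 3 with the strongest 50% of each list, and 7 without AAV_Null replicate 1, when 1 control library decides.

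The 2 sites lost at Pck1 were chr2:172972285-172972533, 6.2 kb upstream, with 51.9 and 72.5 in AAV_Null, and chr2:173045134-173045376, 66.7 kb downstream of the start, with 24.4 and 25.4. The first was also called in Trib1_LSKO replicate 2 (46.4). The second was also called in both Trib1_WT libraries (23.2 and 32.0) and in Trib1_LSKO replicate 2 (18.2). Neither was above 72.5 in an AAV_Null list.

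Sites gained in AAV_Cebpa had percentiles of 15.0 to 79.5 in the 2 lists that hold them. At Pck1, chr2:172952764-172952985, 25.7 kb upstream, had 67.2 and 79.5 in AAV_Cebpa and was also called in Trib1_LSKO replicate 1 (70.1), and the other gained site was that at 20.1 kb. At G6pc, chr11:101252049-101252280 had 34.6 and 57.9 and was called in no other library. The second, chr11:101253080-101253314, had 15.0 and 27.0 and was called in all 4 libraries from floxed mice, at 20.8 to 48.3, so AAV_Null alone lacked it. At Tat, the gained sites were that inside the gene, that at 61.5 kb, and chr8:112543340-112543553, with 20.8 and 27.0, called in no other library.

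Around G6pc fewer peaks were listed with the C/EBPα vector, whose lists were longer and deeper. How often other windows of the series show such a difference was not counted. G6pc had 13 and 16 peaks in AAV_Null and 9 and 12 in AAV_Cebpa (means of 14.5 ± 2.12 and 10.5 ± 2.12, SD, n = 2). Among the 16 of AAV_Null replicate 2, those 23.7, 25.3 and 27.7 kb downstream of the start were in no other list, at percentiles of 27.4, 23.4 and 25.4. The groups did not overlap, and the difference of -4 had the smallest p the design allows (exact two-sided permutation p = 0.333). It was -5 with lists of equal length and -2.5 without AAV_Null replicate 2 or without AAV_Cebpa replicate 1. With the gene and 20 kb on each side it was -3, no longer at the minimum (exact permutation p = 0.667). Pck1 had 12 peaks in each of these 4 libraries. Per 10000 peaks of the list, however, Pck1 had 2.59 and 2.45 in AAV_Null and 2.01 and 1.49 in AAV_Cebpa, and G6pc had 2.80 and 3.26 against 1.51 and 1.49. Neither pair of groups overlapped (exact permutation p = 0.333 for each). At Pck1, with 12 peaks in each library, the shares and this p follow from list length alone and do not describe the locus. Tat had 9 and 8 in AAV_Null and 10 and 9 in AAV_Cebpa (difference of 1, exact permutation p = 0.667), and that difference turned to -1.5 once all lists had equal length and to -2 with the strongest 50%.

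Over the 3 genes, the windows held 34 and 36 peaks in AAV_Null and 31 and 33 in AAV_Cebpa. Per 10000 peaks of the list this was 7.34 and 7.34 in AAV_Null and 5.20 and 4.10 in AAV_Cebpa (means of 7.34 ± 0.00236 and 4.65 ± 0.778, SD, n = 2; the exact two-sided permutation test gave p = 0.333, its minimum). The longer lists of AAV_Cebpa enter this share as its denominator. In the Trib1 experiment the shares were 6.94 and 6.22 in Trib1_WT and 6.99 and 6.41 in Trib1_LSKO, which overlap.

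**Figure D4:**
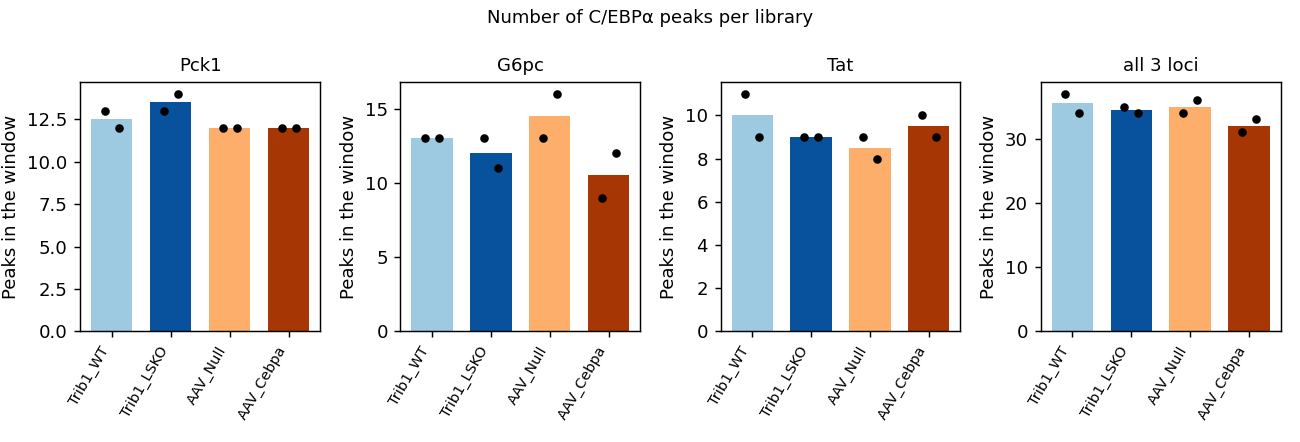
Number of C/EBPα peaks in the windows of Pck1, G6pc, Tat and all 3 together (vertical axes), by group; bars are means and points are the 2 libraries. At G6pc the AAV_Cebpa libraries (9 and 12) lie below the AAV_Null libraries (13 and 16), while at Pck1 both groups have 12 in each library.

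At 1 site the libraries separated by experiment and not by treatment, and at another they did so only in part. Both sites were chosen after their values were seen, and the share of all sites with the second pattern was not counted. The site at chr2:172988142-172988417, 3.6 kb past the rounded end of Pck1, had percentiles of 78.7 and 79.6 in Trib1_WT and 73.7 and 71.3 in Trib1_LSKO, and was listed in none of the 4 AAV_Null and AAV_Cebpa libraries. It was the only 1 of the 59 sites with this pattern, which 0.67% of all sites of the series had, while 0.238% had the reverse pattern, shown by none of the 59. At Tat, the site chr8:112508017-112508261, 5.9 kb upstream, was listed in all 4 libraries from floxed mice (85.5 and 90.9 in Trib1_WT, 83.6 and 90.2 in Trib1_LSKO) and otherwise only in AAV_Null replicate 2 (80.9). The experiments differ in the floxed Trib1 allele and in vector dose, which cannot be told apart here.

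Absent calls have a limit at these genes. The weakest listed peak held 16 to 46 tags at Pck1, 11 to 25 at G6pc and 10 to 41 at Tat, depending on the library. The weakest peaks of the whole lists held 7 to 12. Peaks were also missing from lists at places where other libraries had percentiles above 70, as at the Tat site 2.1 kb upstream. The tags at a place with no listed peak are not in a peak list, so an absent call gives no level there.

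The remaining 24 sites, not covered by the rule for sites described in full, comprised 8 at Pck1, 7 at G6pc and 9 at Tat. Of these, 13 were called in 1 library. Their percentiles ran from 2.26 to 99.6, and the highest belonged to the shifting pair at Pck1 and the Tat site 2.1 kb upstream.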

How the data were processed

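C/EBPα ChIP-seq peak lists of 8 mouse liver libraries were used, 1 list per library. Per the submitters' processing notes, the authors used Bowtie, HOMER and build mm9. Versions, the calling threshold, input use and duplicate removal were not given in the sources used here. The deposited signal value of each peak was, in every list, a whole multiple of a single step within rounding (0.051), and tags and relative depth were recovered from that step. Absolute depth is unknown.

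With Python 3.11.15 and pandas 2.3.3, peaks were joined into a site where windows of 200 bp around their midpoints shared 1 bp or more. Percentiles are ranks inside a list. Joining, calls and step recovery were tested on simulated data. Peak numbers per window were compared by exact two-sided permutation tests over 6 assignments. Sites described in full lie within 1 kb of a gene start or inside a gene, are in all 8 libraries, or are gained or lost. The windows, this rule and the motifs were chosen with earlier results of these data known. RefSeq promoters of all 3 genes were matched by symbol. No mm9 genome was used here, so other pathway genes and the sequence under peaks were not analysed here. Alternatives were other joining windows, stricter or equal-length lists, a common signal minimum, narrower loci and leaving out each library.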

Additional observations from a re-analysis of the deposited data

How the results depend on the processing

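Of 228 values recomputed for 21 results, 183 kept their direction or lay within 1.5 times the reported count, 39 moved, 3 fell to no difference and 3 reversed. The 183 include the values with the replicate number as a block, which were the same by construction, and counts of 0 that stayed 0. The counts are small, so a single site moves them, and the cause of each change was not tested. The difference in peak number at Tat reversed to -2 (AAV_Cebpa) and 0.5 (Trib1_LSKO) with the strongest 50% of each list, and to -1.5 (AAV_Cebpa) with lists cut to equal length (46348 peaks). At Pck1 the AAV_Cebpa difference of 0 became -0.5 under both settings and -1 with the gene and 20 kb on each side. Under that narrower locus the Trib1_LSKO difference at Pck1 was 0, gained sites were 0 at each of the 3 genes in Trib1_LSKO and 0 at Pck1 in AAV_Cebpa, 1 site was lost at Pck1 in AAV_Cebpa, and 2 Pck1 sites were in all 8 libraries. With the strongest 50%, gained sites were 0 at Pck1 and G6pc in Trib1_LSKO, 0 at G6pc and 1 at Tat in AAV_Cebpa, and 2 Tat sites were in all 8 libraries. When a peak had to be in the strongest 50% to count as present and in no part of a list to count as absent, gained sites were 0 at Pck1 and G6pc in Trib1_LSKO and 1, 0 and 1 at Pck1, G6pc and Tat in AAV_Cebpa, with 1 lost at Pck1. With lists cut to equal length, gained sites were 0 at G6pc in Trib1_LSKO, and 1 at G6pc and 1 at Tat in AAV_Cebpa.

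With 1 library left out, a site of its group needs only 1 peak to count. Leaving out each library in turn gave, for Trib1_LSKO, differences in peak number of 0.5 to 1.5 at Pck1, -2 to 0 at G6pc and -2 to 0 at Tat. Gained sites were 1 to 2 at each gene, and lost sites 0 to 1 at Pck1, 1 to 1 at G6pc and 1 to 3 at Tat. For AAV_Cebpa, the differences were 0 to 0 at Pck1, -5.5 to -2.5 at G6pc and 0.5 to 1.5 at Tat. Gained sites were 2 to 3 at Pck1 and G6pc and 3 to 4 at Tat, and lost sites 2 to 3, 4 to 7 and 0 to 2. Sites in all remaining libraries were 7 to 8 at Pck1, 7 to 7 at G6pc and 4 to 5 at Tat.

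With the replicate number as a block, differences in peak number were the same by construction, 1, -1 and -1 for Trib1_LSKO and 0, -4 and 1 for AAV_Cebpa at Pck1, G6pc and Tat. Deviations of percentiles in same-numbered libraries had a correlation of 0.138 in the Trib1 experiment (34866 sites) and -0.016 in the other (27702 sites). Only sites called in all 4 libraries of an experiment entered. The numbers were not taken as pairs, and whether equal numbers share a batch was not tested.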

Other observations

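Near Pck1, a further call moved between positions. The site 9.0 kb upstream was listed in 7 libraries, at 39.8 to 70.2, and AAV_Null replicate 1, which lacked it, had its own peak 315 bp away (53.2).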
